A study of Mus musculus with 203 samples.

Results

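The HDM response of mouse lung parenchyma during dexamethasone (DEX) treatment was measured in 20 of the 160 bulk RNA-seq libraries taken at 11 weeks in a study of experimental asthma, COPD and their overlap. The libraries were taken by their titles: 10 were labelled 11-Parenchyma-HDM.AIR.DEX and 10 were labelled 11-Parenchyma-PBS.AIR.DEX. All came from female Balb/C mice aged 18 to 20 weeks, sampled at 11 weeks of the protocol. HDM.AIR.DEX mice received house dust mite (HDM) extract into the nose, on 5 days per week for 3 weeks and, for the 11-week animals, 3 times per week in weeks 4 to 11; PBS.AIR.DEX mice received phosphate buffered saline (PBS) in its place. Both groups breathed normal air in the arm of the study that also exposed mice to cigarette smoke, and both were treated with DEX during week 11, so DEX and air are shared and only the allergen differs. The dose of DEX and the time between the last dose and tissue collection were not given in the sources used here. For comparison, 10 HDM.AIR and 10 PBS.AIR parenchyma libraries without DEX, and 10 HDM.AIR.DEX and 10 PBS.AIR.DEX airway libraries, were used.

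HDM extract holds proteases and microbial products that reach the airway epithelium and dendritic cells, and repeated exposure raises a T helper type 2 and type 17 response with eosinophils, neutrophils, mucus and allergen-specific antibody. Dexamethasone is a synthetic glucocorticoid. It enters cells and binds the glucocorticoid receptor, which represses NF-kB and AP-1 driven cytokine genes and induces genes such as Tsc22d3 and Fkbp5. The parenchyma is the gas-exchange part of the lung, made of alveolar epithelium, capillaries, fibroblasts and resident macrophages.

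Library totals lay between 23040519 and 33869177 counts in 19 of the 20 libraries. Library X32 of the HDM.AIR.DEX group held 13003087 counts, and ribosomal RNA genes took 35.9% of them, against 0.285% to 1.28% in the other 19. It also stood apart on the second principal component (8.83% of variance over the 500 most variable genes), whereas the first (75.1%) separated every HDM.AIR.DEX library from every PBS.AIR.DEX library. Of the defining parenchymal genes, the type II cell gene Sftpc was at 12700 to 24200 CPM (counts scaled to one common library total after TMM normalization) in HDM.AIR.DEX and 18100 to 25300 CPM in PBS.AIR.DEX libraries, and the type I cell gene Ager at 1730 to 2190 and 3020 to 3840 CPM. The labels do not say whether libraries of a group came from separate mice, so p-values measure the spread between these libraries, which may be partly technical. In bulk tissue, fewer cells of a type and less RNA per cell cannot be told apart.

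With DEX on board, HDM still raised a broad adaptive immune and myeloid programme and lowered capillary, type I cell and club cell genes. Of 18250 genes tested with limma, 1558 rose (8.54%) and 398 fell (2.18%) at an adjusted p under 0.05 and a log2 fold change (log2FC) of at least 1 in size. Without the size limit, 4116 were higher (22.6%) and 3578 lower (19.6%). Counts in the gene lists below are to be read beside these shares. The median log2FC over all genes was 0.03 (0.05 for HDM without DEX). Leaving out library X32 gave 1558 higher and 382 lower genes. All 10 HDM.AIR.DEX libraries lay above all 10 PBS.AIR.DEX libraries in 1402 of all genes tested (7.68%) and below them in 854 (4.68%). Of the genes that rose, 903 had no overlap between the groups, as had 43.2% of those that fell.

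**Figure D1:**
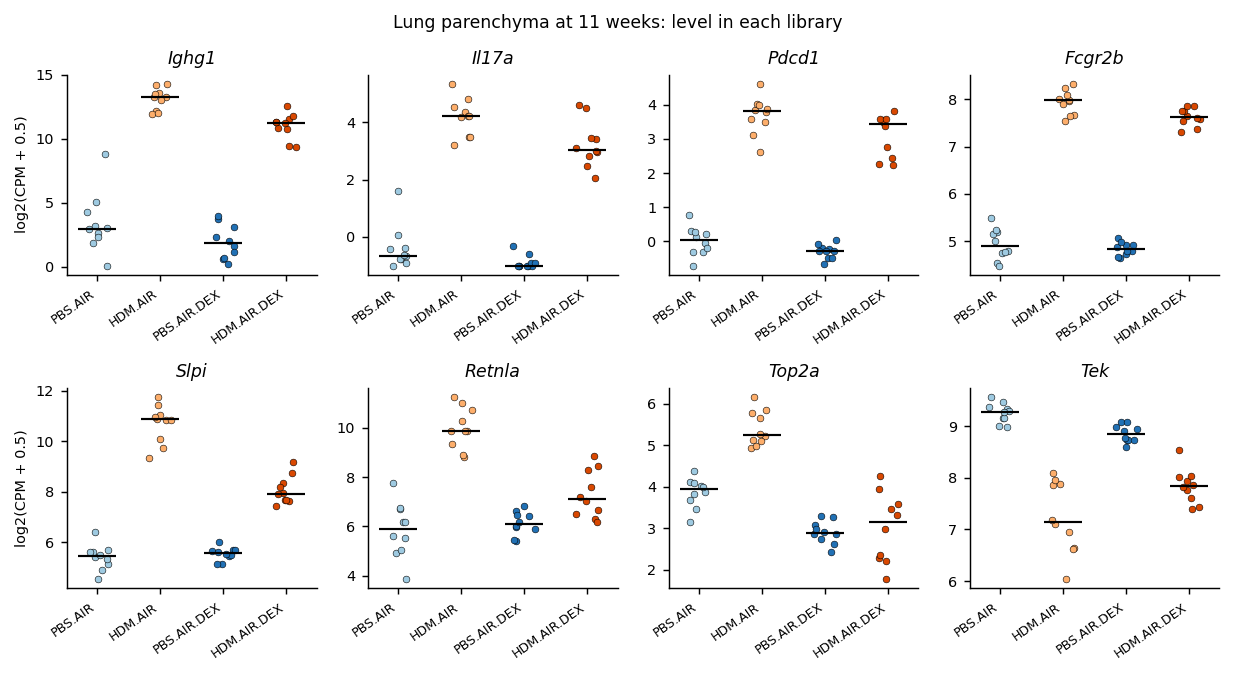
Level of 8 genes in each parenchyma library at 11 weeks, as log2(CPM + 0.5), where each point is 1 library and each bar is the median of 10. Ighg1, Il17a, Pdcd1, Fcgr2b and Slpi were higher in all 10 HDM.AIR.DEX than in all 10 PBS.AIR.DEX libraries, Tek was lower in all 10, and Retnla and Top2a overlapped.

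Antibody genes led the response. Ighg1, the constant region of immunoglobulin G1 (chr12:113325240-113330523 of GRCm38, minus strand), was at 0.649, 3.09 and 15.4 CPM (lowest, median and highest of 10) in PBS.AIR.DEX and at 670.2, 2450 and 5930 CPM in HDM.AIR.DEX libraries, a log2FC of 9.37 ± 0.76 (SE, adjusted p = 2.3e-22 by limma). The groups were far apart. Jchain, which joins polymeric IgA and IgM, went from 11, 18.2 and 34.7 to 887.2, 1920 and 3090 CPM (log2FC 6.53 ± 0.34, adjusted p = 5.9e-38), also without overlap.

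Of the 17 tested plasma cell and immunoglobulin constant genes, 13 rose and 0 fell with a log2FC of at least 1, and their median log2FC was 4.21. Igha went from 9.99, 16.7 and 24.5 to 285.4, 1270 and 1790 CPM (log2FC 5.85 ± 0.31, adjusted p = 5.9e-38). Ighm went from 22.6, 40.4 and 68.9 to 434.9, 722.8 and 1390 CPM (log2FC 4.21 ± 0.34, adjusted p = 9.1e-23). Neither overlapped. Ighg2b rose by a log2FC of 7.26 ± 1.14, and Ighg2c, which had at most 3 counts in any PBS.AIR.DEX library, was at least 77.6-fold higher. Balb/C mice are known to carry Ighg2a in place of Ighg2c, so reads on this gene of the reference may belong to a related gene, and the value is uncertain. Ighd, the constant region of naive B cells, did not pass (log2FC 0.62 ± 0.46, adjusted p = 0.29), and its groups overlapped. The secretory cell regulators Mzb1 and Derl3 rose (log2FC 4.08 and 3.24), whereas Sdc1 and Prdm1, which epithelium and other cells also express, had log2FCs of 0.16 and −0.04 (adjusted p = 0.16 and 0.83). Among the V segment genes tested, 85.2% rose and 0 fell. A segment could pass the filter on counts through HDM libraries alone. One near 0 in PBS.AIR.DEX libraries could not fall, so the filter leans these shares towards rises. Near-identical segments share reads, and the reference is of another strain than these mice, so the call on any 1 segment is uncertain. Immunoglobulin genes together took 0.385% to 1.97% of counts in HDM.AIR.DEX and 0.00988% to 0.0271% in PBS.AIR.DEX libraries.

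**Figure D2:**
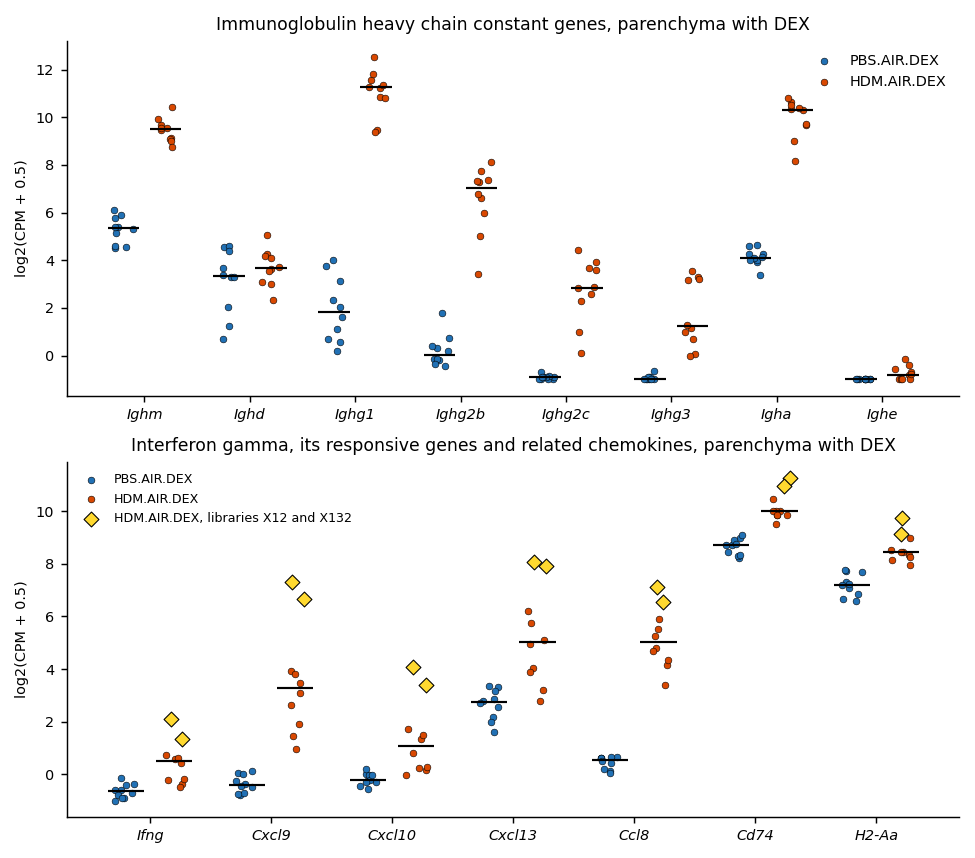
Level in each of the 20 DEX parenchyma libraries of the heavy chain constant genes (upper panel) and of interferon gamma, responsive genes and chemokines (lower panel), as log2(CPM + 0.5), with the median of each group as a bar and libraries X12 and X132 as yellow diamonds. Of the heavy chain genes, Ighd and Ighe overlapped between the groups, and the yellow diamonds are the highest HDM.AIR.DEX libraries for each of the 7 genes below.

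T cell genes rose nearly as a whole: 18 of 20 were called higher and 0 lower, with a median log2FC of 2.0. The largest rises were of receptors found on activated T cells. Pdcd1, which encodes the inhibitory receptor PD-1, went from 0.136, 0.321 and 0.535 to 4.17, 10.3 and 13.5 CPM (log2FC 4.7 ± 0.39, adjusted p = 1.2e-21). Ctla4 rose by 4.63 ± 0.57 and Tigit by 4.45 ± 0.53. The CD3 chain Cd3e (log2FC 2.13 ± 0.32), Cd4 (2.31 ± 0.41) and Foxp3 (2.2 ± 0.55), the factor of regulatory T cells, also rose without overlap between the groups. Cd8a rose less tightly (log2FC 1.23 ± 0.47, adjusted p = 0.026) with overlapping groups, and Cd8b1 did not pass (0.89, adjusted p = 0.12). Among T cell receptor segments, 29 of 41 rose and 0 fell, and the filter on counts leans this towards rises in the same way. Of 13 cytotoxic lymphocyte genes, 2 were called higher, the chemokine Ccl5 (log2FC 2.3 ± 0.37) and the granzyme Gzmk (2.24 ± 0.46), while Gzma, Gzmb and Prf1 did not pass (log2FC −0.8, 0.04 and −0.13).

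B cell genes rose in 8 of 13 tested, with 0 lower and a median log2FC of 1.14. Cd22 went from 22.6, 31.5 and 42.9 to 61.4, 72.1 and 106.6 CPM (log2FC 1.32 ± 0.14, adjusted p = 3.9e-15) without overlap. Of the lymphoid tissue chemokines, 6 of 12 rose and 0 fell: Ccl19, which draws cells bearing CCR7, by a log2FC of 4.08 ± 1.24 and the B cell attractant Cxcl13 by 2.75 ± 0.52, the latter with overlap. Lta, a lymphotoxin, rose by 2.39 ± 0.34, whereas Ccl21a and Ccr7 lay at log2FCs of 0.05 and 0.16 and did not pass.

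The type 17 and acute phase list rose in 11 of 15 genes, with 0 lower and a median log2FC of 2.62. Il17a, the defining cytokine of that response, was at 0, 0 and 0.307 CPM in PBS.AIR.DEX and at 3.69, 7.75 and 23.7 CPM in HDM.AIR.DEX libraries (log2FC 7.94 ± 0.96, adjusted p = 1.9e-12). Il21, a helper cytokine for B cells, had at most 1 count in any PBS.AIR.DEX library and was at least 12.4-fold higher. Neither cytokine overlapped between groups. Serum amyloid Saa3 went from 5.53, 12.3 and 23.7 to 69, 331.5 and 804.6 CPM (log2FC 4.89 ± 0.38, adjusted p = 2.2e-23), and Orm1 rose by 4.65 ± 0.45. Lcn2, an iron-binding antibacterial protein, went from 214.9, 378.5 and 516.7 to 756.9, 1830 and 2360 CPM (log2FC 2.15 ± 0.25, adjusted p = 2.9e-13). Il6 did not pass (log2FC 0.65 ± 0.51, adjusted p = 0.32).

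Complement genes rose in 10 of 15, with 0 lower and a median log2FC of 1.44. They covered the start of the classical pathway (C1qa, C1qb and C1qc, log2FC 2.12, 2.43 and 2.34), the alternative pathway (Cfb, from 21.3, 29.3 and 46.8 to 184.6, 311.2 and 631.8 CPM, log2FC 3.49 ± 0.2) and the anaphylatoxin receptor C3ar1 (log2FC 2.86 ± 0.18). The regulator Serping1 did not pass (log2FC 0.13). The gene with the smallest p among those that rose was Fcgr2b, the inhibitory receptor for IgG, which went from 24.6, 28.1 and 32.9 to 157.4, 197.7 and 231.9 CPM (log2FC 2.81 ± 0.1, adjusted p = 6.3e-55).

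Of 18 genes of alternatively activated macrophages, 12 rose and 0 fell, with a median log2FC of 1.57. Mmp12, the macrophage elastase, went from 21.4, 25.2 and 47.8 to 379.9, 1240 and 2370 CPM (log2FC 5.33 ± 0.28, adjusted p = 9.9e-38). Trem2, a lipid-sensing receptor, rose by 2.72 ± 0.2 and the scavenger receptor Msr1 by 2.35 ± 0.19. These 3 did not overlap between groups. Retnla, a hallmark of interleukin 4 and 13 signalling in macrophages, rose by 1.2 ± 0.27 (adjusted p = 0.00013), from 41.7, 68.1 and 112.2 to 71.3, 137.3 and 458.1 CPM with overlap, and Arg1 and Ccl17 did not pass (log2FC 1.25 and 0.08, adjusted p = 0.12 and 0.87). Of 10 alveolar macrophage genes, 1 was called higher, Chil3, while Marco was lower (log2FC −0.95 ± 0.32, adjusted p = 0.0098) and Siglecf lay at 0.08.

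Chemokines for monocytes and neutrophils rose in 8 of 16, with 0 called lower and a median log2FC of 1.16. The largest rises were of Ccl8 (log2FC 5.42 ± 0.68), which recruits monocytes and T cells, and of the neutrophil attractants Cxcl5 (3.2 ± 0.48) and Cxcl3 (2.83 ± 0.55). The neutrophil genes themselves did not follow: of 9 tested, 0 were called in either direction, the median log2FC was 0.32, and S100a9 was at 144.2, 198.8 and 346.5 CPM in PBS.AIR.DEX and at 72, 197.6 and 384 CPM in HDM.AIR.DEX libraries (log2FC −0.06 ± 0.29, adjusted p = 0.9). Ltf and Csf3r were higher by less than a log2FC of 1 (0.88 and 0.78), and Retnlg was lower (−0.74).

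All 12 genes of the MHC class II list rose (median log2FC 1.5, range 1.01 to 1.69), with 7 showing no overlap between groups. The list holds the class II chains, the peptide loaders H2-DMa and H2-DMb1, their modulators H2-Oa and H2-Ob, the invariant chain Cd74 and the transactivator Ciita, together with the dendritic cell genes Cd80, Cd86 and Ccl22. H2-Aa went from 94.9, 147.5 and 217.2 to 247.3, 353.2 and 858.5 CPM (log2FC 1.38 ± 0.15, adjusted p = 7.6e-15), and Cd74 from 300.8, 419.7 and 542.6 to 731.2, 1020 and 2450 CPM (log2FC 1.52 ± 0.13, adjusted p = 3.7e-20). Class II genes are known to share an upstream module of an X box and a Y box, read by RFX and NF-Y with CIITA. Of the 12 genes, 8 have a start in the RefSeq table (GRCm38.p6), and 5 of these held the Y box letters in the 150 bases before it. H2-DMa, Cd80 and Ccl22 held neither motif. The windows of the 5 genes with a match, chosen for it, are shown 5′ to 3′ on the strand of the gene. Capitals mark matches to the Y box letters TGATTGG and to the X box, written as AG, any base, AAC, any 2 bases and ATG, both searched on both strands.
H2-Eb1 (chr17:34305717-34305866, plus strand): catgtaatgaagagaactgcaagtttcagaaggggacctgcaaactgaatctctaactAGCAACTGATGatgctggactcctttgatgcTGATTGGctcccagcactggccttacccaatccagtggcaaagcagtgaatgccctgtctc
H2-DMb1 (chr17:34153041-34153190, plus strand): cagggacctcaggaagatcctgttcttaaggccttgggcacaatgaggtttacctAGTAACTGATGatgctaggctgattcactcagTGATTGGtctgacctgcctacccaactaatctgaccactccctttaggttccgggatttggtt
H2-Ob (chr17:34238755-34238904, plus strand): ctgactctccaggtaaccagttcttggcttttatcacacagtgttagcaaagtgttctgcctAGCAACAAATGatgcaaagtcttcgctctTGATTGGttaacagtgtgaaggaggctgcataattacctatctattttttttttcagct
H2-Aa (chr17:34287824-34287973, minus strand): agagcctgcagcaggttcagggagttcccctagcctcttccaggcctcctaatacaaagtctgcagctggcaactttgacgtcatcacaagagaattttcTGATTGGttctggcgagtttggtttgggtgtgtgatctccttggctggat
H2-Oa (chr17:34092229-34092378, plus strand): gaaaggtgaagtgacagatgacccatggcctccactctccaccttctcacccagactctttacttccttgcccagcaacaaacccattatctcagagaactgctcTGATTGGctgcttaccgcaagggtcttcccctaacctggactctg

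In these 5 windows the Y box letters stood once, on the strand of the gene and 45 to 63 bases before the start, and in 3 of them the X box pattern stood 88 to 95 bases before it. Of 32851 windows of the same length in the table, 5.71% held the Y box letters and 0.411% the X box pattern, and the matches did not overlap. The log2FCs of these 5 genes lay between 1.13 (H2-Ob, adjusted p = 0.0079) and 1.6 (H2-Eb1, adjusted p = 2.4e-14), and the groups overlapped for H2-Oa and H2-Ob. A match describes the letters only.

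Interferon gamma and the genes it induces varied widely among the HDM.AIR.DEX libraries themselves. Of 16 interferon response genes, 5 were called higher and 0 lower, with a median log2FC of 0.52. Cxcl9, a ligand of CXCR3 on T cells, was highest in library X12, followed by library X132 at 99.9 CPM, against 1.46 to 14.8 CPM in the other 8 libraries and at most 0.583 CPM in PBS.AIR.DEX (log2FC 5.38 ± 1.22, adjusted p = 0.00011). Ifng was at 3.78 and 2.04 CPM in those libraries and at 0.21 to 1.18 CPM in the other 8. The same 2 libraries were highest for Cxcl10, Cxcl13, Ccl8, Cd74 and H2-Aa; they were singled out after the values were seen, and the labels give nothing that sets them apart. Of the genes that type I interferon also induces, Isg15 did not pass (log2FC 0.01, adjusted p = 0.99), Ifit1 was lower (−0.46, adjusted p = 0.047) and Oas1a rose without overlap (1.16, adjusted p = 9.5e-08).

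The type 2 cytokine list was mixed in bulk parenchyma. Of 14 genes, 5 were higher and 3 lower at an adjusted p under 0.05, 2 of them called higher and 0 called lower, with a median log2FC of 0.04. Il13 was at 0 in all 10 PBS.AIR.DEX libraries and above 0 in 8 of 10 HDM.AIR.DEX libraries, at no more than 0.261 CPM, and Crlf2, the receptor chain for TSLP, rose by 1.54 ± 0.37. The alarmin Il33 was higher (log2FC 0.94 ± 0.2, adjusted p = 2.2e-05). Il4, Il5 and Il13ra2 did not pass (log2FC −0.48, 0.55 and 0.18), and Il9 was at 0 in all 20 libraries. Of 10 eosinophil genes, 2 were called higher: the eotaxin Ccl11, from 0.711, 1.12 and 1.33 to 3.64, 5.18 and 14.3 CPM (log2FC 2.42 ± 0.65, adjusted p = 0.0011), and the granule gene Prg2, from 0, 0.0387 and 0.375 to 0.637, 1.25 and 2.29 CPM (log2FC 4.21 ± 0.54, adjusted p = 3.1e-11). Both were free of overlap. Siglecf and Ccr3, receptors on eosinophils, lay at log2FCs of 0.08 and −0.87 and did not pass.

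Mucus genes rose in 6 of 13, with 0 lower and a median log2FC of 1.44. Clca1, a goblet cell product, went from 0, 0.0616 and 0.348 to 2.68, 6.79 and 70.6 CPM (log2FC 6.73 ± 2.52, adjusted p = 0.023), and Muc5b from 7.26, 13.1 and 20.9 to 27.5, 34.4 and 209.7 CPM (log2FC 1.69 ± 0.3, adjusted p = 6.5e-07). The highest library for both was X32. Without it, 6 of 13 were called, and Clca1 had a log2FC of 6.6 (adjusted p = 0.027). Of 10 mast cell and basophil genes, 3 were called higher: Mcpt1 (log2FC 4.53 ± 0.76), Ms4a2 (1.66 ± 0.52) and Fcer1a (1.54 ± 0.58), the last 2 being chains of the IgE receptor at under 1 CPM in every DEX library. Gata2 and Kit, which endothelial and other cells share, were lower (log2FC −0.8 and −0.48).

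Structural cell genes went down in several compartments. Of 14 lung endothelial genes, 12 were lower, 5 of them called at a log2FC of −1 or below, and the median was −0.85. Without library X32, 11 were lower and 3 called, with a median of −0.87. Tek, the angiopoietin receptor, went from 388.8, 460.2 and 542.8 to 167.7, 228.8 and 373.7 CPM (log2FC −1.03 ± 0.19, adjusted p = 1.7e-06), and Ednrb from 67.3, 90.3 and 103.8 to 21, 35.6 and 66.4 CPM (log2FC −1.28 ± 0.17, adjusted p = 5e-11). Neither overlapped. Of 10 type I cell genes, 8 were lower (median −0.71) with 0 called, led by the water channel Aqp5 (log2FC −0.99 ± 0.12), and 7 had no overlap. Of 11 type II cell genes, 0 were called, 1 (the collectin Sftpd, log2FC 0.56 ± 0.15) passed, and the median was 0.03. Of 10 alveolar fibroblast genes, 9 were lower and 1 higher, with Wnt2 the single gene called (log2FC −1.43 ± 0.19) and Mfap4 the gene that was higher (0.65 ± 0.15).

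Of 8 club cell genes, 7 were lower, among them the secretoglobin Scgb1a1 (log2FC −0.77 ± 0.16) and Cyp2f2 (−0.81 ± 0.12), and of these Bpifa1 was called (−2.08 ± 0.39, with overlap). The eighth, the secretoglobin Scgb3a1, went the other way, from 62.6, 163.6 and 243.8 to 329.2, 449.5 and 669.8 CPM (log2FC 1.58 ± 0.29, adjusted p = 1.1e-06) without overlap. Ciliated cell genes split, with 4 of 10 higher and 1 lower. Of 10 smooth muscle genes, 3 were higher and 1 lower, with 1 called (Actg2, log2FC 1.15). Over all genes 22.6% were higher and 19.6% lower in this sense, so these counts say little about either cell type. Of 20 collagen and matrix genes, 2 were called higher, near the 8.54% called over all genes. These were Col15a1 (log2FC 1.16 ± 0.26) and Thbs4, which was at least 12.9-fold higher over PBS.AIR.DEX libraries of at most 3 counts. Fn1 was higher (0.94 ± 0.12) and Sparc lower (−0.75 ± 0.12), both without overlap. The gene with the smallest p among those that fell was Epb41l3, a cytoskeletal adaptor (24.7, 27.2 and 36.4 to 11.1, 12.8 and 16.4 CPM, log2FC −1.1 ± 0.08, adjusted p = 3.7e-25).

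The largest falls without overlap were of genes of low level. Hes2, a transcription factor, went from 1.49, 2.36 and 4.45 to 0, 0.361 and 0.739 CPM (log2FC −3.29 ± 0.36), and Slc47a1, Cd209f, Cst8 and Asgr1 had log2FCs between −3.28 and −3.06. Bcan (−2.89) followed. Ndst4 had at most 2 counts in any HDM.AIR.DEX library and was at least 1.97-fold lower. Other large rises without overlap were of Slc6a12, a betaine transporter (log2FC 6.77 ± 0.67), and H2-M2, a non-classical class I gene (6.39 ± 0.91).

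Markers of tissue that a dissection can carry along were checked beside these lists. All 6 erythroid genes fell (median log2FC −2.04), and their summed level ranged from 153.2 to 1780 CPM in HDM.AIR.DEX and from 850.3 to 5020 CPM in PBS.AIR.DEX libraries. None of the 12 cardiac muscle, 5 skeletal muscle and 8 adipose genes tested passed. The summed cardiac level was 40.4 to 65.4 and 31.4 to 54.9 CPM, and the summed adipose level 2.2 to 8.42 and 4.79 to 11.5 CPM, in HDM.AIR.DEX and PBS.AIR.DEX. Of 5 mesothelial genes 1 fell (Upk3b, log2FC −1.15), and of 7 squamous genes 1 fell (Krt13, −1.83). Of the 6 thymocyte genes, Rag1, Rag2 and Arpp21 had at most 3 counts in any of the 20 libraries. Of the 2 tested, Cd1d1, which other cells also express, was higher without overlap (log2FC 1.01 ± 0.19, adjusted p = 3.6e-06), and Dntt did not pass (0.21). The summed level of these 2 was 18.2 to 29.2 CPM in HDM.AIR.DEX and 9.11 to 14.5 CPM in PBS.AIR.DEX libraries. Among the libraries without DEX, the skeletal muscle genes summed to 2620 CPM in library X70 of HDM.AIR and to 3.2 to 6.13 CPM in the other 9 of that group. How far blood content moved with the endothelial genes was not tested.

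Most of the rises without DEX were also called with it, whereas most of the falls were not. HDM.AIR against PBS.AIR gave 2379 higher (13.0%) and 1117 lower (6.12%) genes. Of the 1558 genes that rose with DEX, 1416 (90.9%) also rose without it, which was 59.5% of the rises without DEX, and their median log2FC was 1.76 with and 2.16 without. Of the 398 that fell, 315 (79.1%) also fell without DEX, which was 28.2% of the falls without DEX. Their median log2FC was −1.32 with and −1.77 without. No gene was called in opposite directions. The 4 groups share no library, so the difference between both effects was tested directly: it passed an adjusted p of 0.05 in 2263 genes (12.4%), of which 1098 were more positive with DEX (6.02%) and 1165 more negative (6.38%). With ribosomal RNA genes left out of the normalization, 1489 were more positive and 931 more negative, and without library X70 of HDM.AIR 1202 and 920. Of the genes that rose without DEX, 488 rose less with DEX by this test and 1 rose more, and of those that fell without DEX, 399 fell less and 0 fell more. These genes were chosen by the effect without DEX, which also enters the difference. The choice by itself leans these counts towards a smaller effect with DEX, and how far was not tested.

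**Figure D3:**
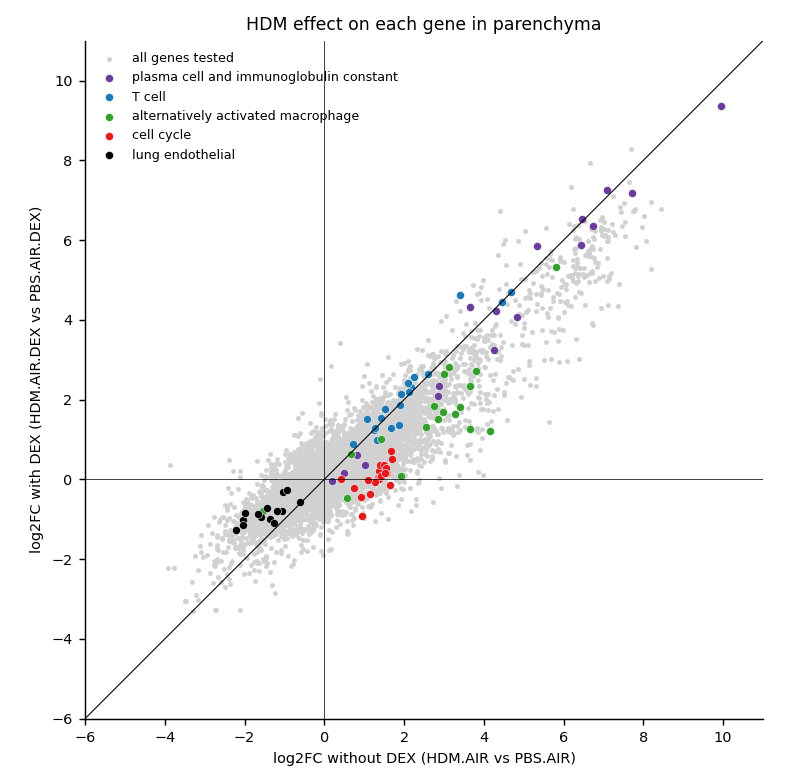
The log2FC of HDM over PBS in parenchyma for each of 18250 genes, without DEX on the horizontal and with DEX on the vertical axis, with 5 gene lists coloured and the line of equal effect. Of T cell and plasma cell genes, 6 of 20 and 13 of 17 lie below the line. Of alternatively activated macrophage and cell cycle genes, 17 of 18 and 20 of 20 do, whereas endothelial genes lie above it.

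The lists divided in how far the HDM effect differed with DEX. T cell genes had a median log2FC of 2.0 with and 1.9 without DEX, and 0 of 20 passed the test of the difference. Plasma cell genes had 4.21 and 4.3, with 1 of 17 passing (Xbp1, difference −0.67). Over all libraries the median difference was 0.1 over T cell genes (6 of 20 below 0) and −0.38 over plasma cell genes (13 of 17 below 0). The difference for both lists depended on which libraries were used, by the number in the library title. With numbers up to 120 alone, the median difference was −0.33 over T cell genes (16 of 20 below 0) and −0.89 over plasma cell genes (17 of 17 below 0). With numbers above 120 alone it was 0.66 (1 of 20 below 0) and 0.6 (4 of 17 below 0). In that range PBS.AIR holds library X126, with Ighg1 at 449.3 CPM against 4.42 to 18.5 CPM in its other libraries there. Immunoglobulin genes took 0.142% of counts in X126, against 0.031% to 0.0353%. Pdcd1 was at 0.658 CPM in X126 and at 0.601 to 0.735 CPM in the others. Il17a, which is in the type 17 list, was at 2.51 CPM in X126 and at 0.14 to 0.271 CPM in the others. How far this library moved the differences was not tested. MHC class II genes had 1.5 and 1.77, with 1 of 12 passing (Cd80), and complement genes 1.44 and 1.5, with 1 of 15 (C3, difference −1.1 ± 0.15, adjusted p = 1.5e-07). A difference that misses the threshold does not show equal effects. For Cd3e, its standard error was 0.41 around 0.22.

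The levels behind these effects differed between the groups with and without DEX. H2-Aa was at 94.9, 147.5 and 217.2 CPM in PBS.AIR.DEX and at 223.3, 351.5 and 431.1 CPM in PBS.AIR, and at 247.3, 353.2 and 858.5 CPM in HDM.AIR.DEX and 809.5, 1070 and 1800 CPM in HDM.AIR. Both DEX groups sat lower, with the PBS groups free of overlap. Cd3e also had lower medians with DEX, with PBS medians of 2.76 and 4.62 CPM and HDM medians of 10.8 and 19.2 CPM with and without DEX. The summed level of the plasma cell list had medians of 9630 CPM in HDM.AIR.DEX and 27200 CPM in HDM.AIR. In PBS.AIR.DEX and PBS.AIR these medians were 667.1 and 752 CPM.

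**Figure D4:**
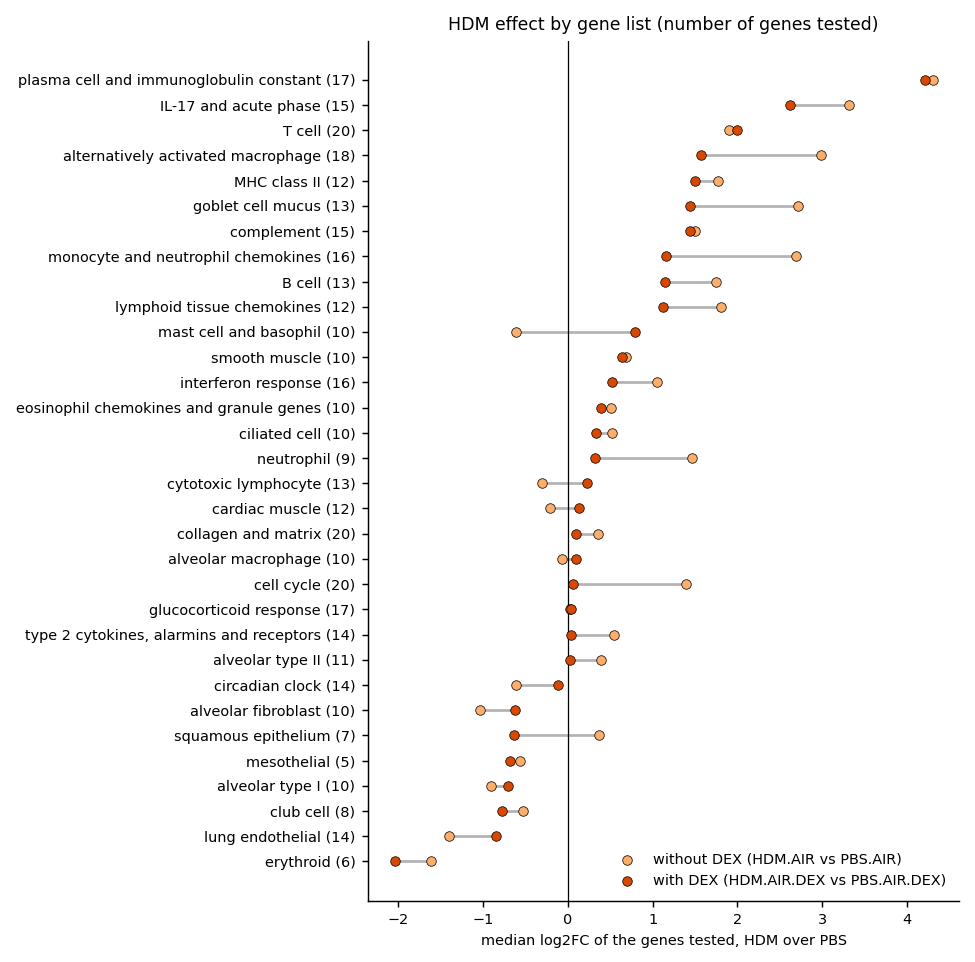
Median log2FC of HDM over PBS for each gene list in parenchyma, with DEX (dark) and without (light), and the number of genes tested in brackets. Over all libraries the T cell, plasma cell and complement points nearly coincide, although the T cell and plasma cell differences take opposite signs in library numbers up to 120 and above 120, and the cell cycle, goblet, macrophage and chemokine points lie apart.

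Cell cycle genes differed as a group. Without DEX 16 of 20 were called higher (median log2FC 1.39), and with DEX 0 were called, 1 was higher (Mki67, 0.7 ± 0.28, adjusted p = 0.031), 1 lower (Bub1, −0.91 ± 0.25) and the median was 0.06. The difference passed in 18 of 20, all more negative with DEX (median −1.32), and in 14 of 20 without library X70 (median −1.27). Top2a, the topoisomerase of dividing cells, was at 8.33, 14.9 and 20.3 CPM in PBS.AIR and 30.3, 37.6 and 71.4 CPM in HDM.AIR, but at 4.92, 6.94 and 9.34 CPM in PBS.AIR.DEX and 2.94, 8.49 and 18.7 CPM in HDM.AIR.DEX libraries (difference −1.41 ± 0.39, adjusted p = 0.0089). The HDM.AIR.DEX libraries spread to both sides of the PBS.AIR.DEX libraries.

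The HDM effect on macrophage and innate genes was smaller with DEX in many members. The difference passed in 10 of 18 alternatively activated macrophage genes, all more negative (median log2FC 1.57 with and 2.98 without DEX), and in 5 of 16 chemokines, 4 of them more negative. Slpi, a protease inhibitor of mucosal surfaces, showed the smallest p among genes called with or without DEX whose effect was more negative with it (−2.76 ± 0.32, adjusted p = 1.1e-10): it went from 22.9, 43.7 and 83.5 to 649.2, 1890 and 3460 CPM without DEX, and from 34.6, 47.2 and 63.3 to 173.5, 243.1 and 586.1 CPM with it. The highest HDM.AIR.DEX library was below the lowest HDM.AIR library. Retnla also differed (−2.97 ± 0.42, adjusted p = 1.5e-07), with 453.6, 932.9 and 2450 CPM in HDM.AIR libraries, as did the receptor Gpr55 (−1.5 ± 0.19), the antioxidant enzyme Srxn1 (−0.96 ± 0.13) and the magnesium transporter Slc41a2 (−0.76 ± 0.11).

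In other genes the smaller effect came with a higher PBS level. Lcn2 was at 1150, 1920 and 3140 CPM in HDM.AIR and at 756.9, 1830 and 2360 CPM in HDM.AIR.DEX, but at 41.8, 98.8 and 272.8 CPM in PBS.AIR and at 214.9, 378.5 and 516.7 CPM in PBS.AIR.DEX libraries (difference −1.95 ± 0.35, adjusted p = 4.2e-05). Gpnmb, a macrophage glycoprotein, was higher with DEX in both exposures, at medians of 36.5 and 238 CPM in PBS.AIR and PBS.AIR.DEX and of 395 and 851 CPM in HDM.AIR and HDM.AIR.DEX (difference −1.57 ± 0.35). Among neutrophil genes, 6 of 9 were called higher without DEX and 0 with it, and the difference passed in 4, among them S100a8 (−1.58) and S100a9 (−1.51).

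On the side of the falls, the difference passed in 8 of 14 endothelial genes and 4 of 10 alveolar fibroblast genes, all more positive with DEX. Without library X70 these counts were 6 and 4, and by edgeR 5 and 5. With numbers above 120 alone they were 0 and 0, with median differences of 0.44 and 0.47. Tek had a log2FC of −1.03 with and −2.03 without DEX (difference 1.01 ± 0.27, adjusted p = 0.0059). Among called genes more positive with DEX, the smallest p was of Ltbp4, a matrix protein that binds latent TGF-beta (difference 1.29 ± 0.19, adjusted p = 3e-07), which went from 225.3, 288.2 and 349.9 to a median of 70.6 CPM without DEX and from 97.1, 111.5 and 131.7 to 47.4, 75.3 and 86.5 CPM with it. Here the PBS.AIR.DEX libraries were all below the PBS.AIR libraries. Chrdl1 (1.44 ± 0.23), Tgfbr3 (0.97 ± 0.15), Nr2f2 (0.76), Gsn (0.74) and Inmt (1.25) followed. In the mast cell list, Ms4a2 (difference 2.22, adjusted p = 0.0084) and Fcer1a (2.21, adjusted p = 0.031) were higher with HDM under DEX and had log2FCs of −0.56 and −0.67 without it.

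The X number in each library title moved with clock and glucocorticoid genes, and differently in each group; the labels do not say what it stands for. Arntl, a core clock activator, was at 31.2 to 38.6 CPM in the 4 PBS.AIR.DEX libraries with numbers above 120 and at 34.9 to 43.2 CPM in the 4 HDM.AIR.DEX libraries, but at 2.38 to 2.87 CPM in the 4 PBS.AIR libraries of that range. In numbers 61 to 120 the order was turned, with 18.4 to 24.5 and 18.3 to 22.2 CPM with DEX against 30.2 to 36.5 CPM in PBS.AIR. In numbers 1 to 60 the 3 HDM.AIR.DEX libraries (28.9 to 34.9 CPM) lay below the 3 PBS.AIR.DEX libraries (38.8 to 42.1 CPM), and both lay above PBS.AIR (13.6 to 15.7 CPM). The DEX groups were closer to each other than to PBS.AIR in each of the 3 ranges. HDM.AIR and PBS.AIR did not overlap in any range: HDM.AIR was at 18.4 to 20.3 CPM in numbers 1 to 60, at 22.4 to 27 CPM in 61 to 120 and at 9.95 to 25 CPM above 120. Nr1d1, a clock repressor, was at 5.09 to 19 CPM in HDM.AIR and 41.2 to 60.3 CPM in PBS.AIR above 120, and at 2.46 to 3.43 CPM in HDM.AIR.DEX and 3.77 to 6.35 CPM in PBS.AIR.DEX. The part of this in the HDM effect without DEX, and in the difference by DEX, was not tested. Tsc22d3, a direct glucocorticoid receptor target, was at 82.7, 96.1 and 357.5 CPM in PBS.AIR.DEX. Its median in PBS.AIR was 284 CPM, so the median was lower with DEX. In numbers above 120, PBS medians with and without DEX were 40.7 and 112.7 CPM for Per1 and 17.5 and 71.6 CPM for Zbtb16. For Fkbp5 they were 34.1 and 47.3 CPM there, but 22.3 and 17.7 CPM in numbers 1 to 60 and 22.3 and 14.4 CPM in 61 to 120. The HDM effect with DEX did not pass for Tsc22d3, Per1, Zbtb16 or Fkbp5 (log2FC −0.12, 0.06, −0.46 and 0.45). Of 14 clock genes, 1 was called higher (Bhlhe41, 1.43). Of 17 glucocorticoid response genes, 1 was called higher with HDM under DEX, the metallothionein Mt1 (1.17 ± 0.21), and Hsd11b1, which regenerates active glucocorticoid, was lower (−0.97 ± 0.14).

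**Figure D5:**
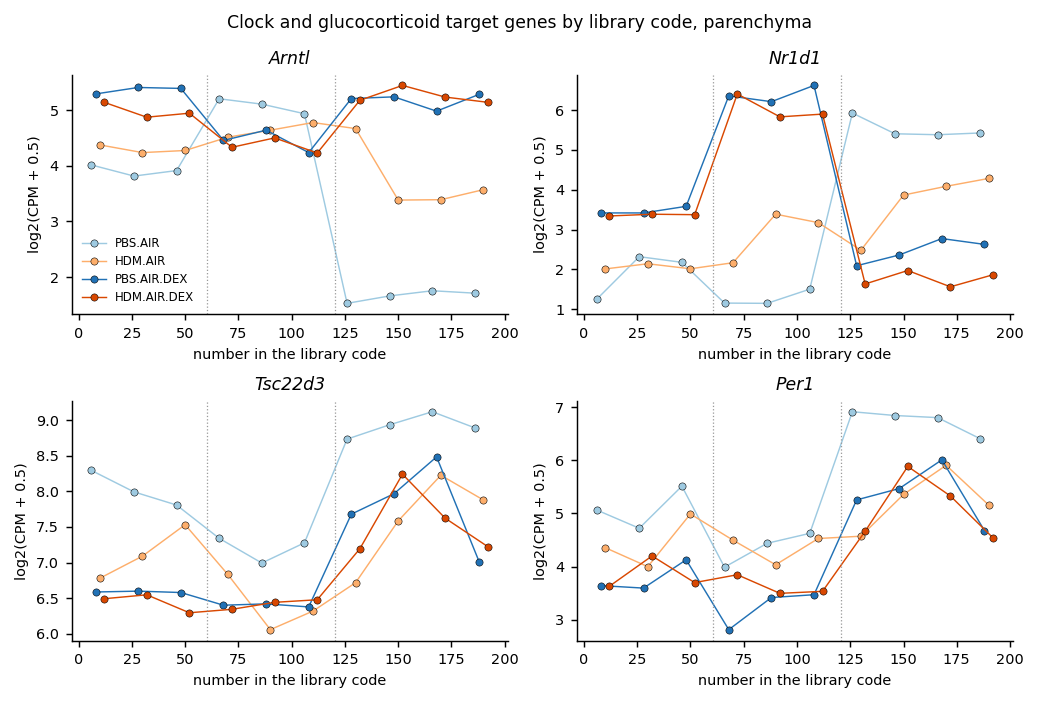
Level of 4 clock or glucocorticoid target genes, as log2(CPM + 0.5), against the number in the library code for the 40 parenchyma libraries of the 4 groups at 11 weeks, with dotted lines after numbers 60 and 120. For Arntl, the DEX groups span 18.3 to 43.2 CPM and PBS.AIR spans 2.38 to 36.5 CPM, with its lowest values at the numbers above 120.

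With numbers up to 120 alone, HDM under DEX gave 1401 rises and 512 falls, and with numbers above 120 alone 1179 and 258. The difference to the effect without DEX depended on the range more. With numbers up to 120, 841 genes were more positive and 666 more negative with DEX, and all 20 cell cycle genes passed. With numbers above 120 alone (4 libraries per group), 15 and 42 genes passed, and 0 of 20 cell cycle genes did, although all 20 were below 0 (median −0.64). Retnla (−3.2 and −2.62), Gpr55 (−1.53 and −1.44), Tgfbr3 (0.89 and 1.09) and Ltbp4 (1.38 and 1.17) passed in both ranges. So did 8 in all of the 40 differences that passed among genes chosen by the naming rule. Of these 40, 30 passed up to 120, and all 40 had the same sign in both. The 40 were taken because they passed over all libraries, of which both ranges are parts, so the shared sign is no separate test. Above 120 Slpi (−2.2, adjusted p = 0.055), Lcn2 (−1.74, 0.062), Tek (0.78, 0.41) and S100a9 (−1.54, 0.37) did not pass. How far the time of collection or the order of processing moved with these numbers was not tested.

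In the airways under DEX, HDM raised 1451 genes (7.95%) and lowered 1138 (6.24%), and the effect differed from that in parenchyma in 2198 genes (12.0%) at an adjusted p of 0.05, of which 1585 were more positive in parenchyma (8.68%) and 613 more negative (3.36%). The same 20 parenchyma libraries enter this contrast. Pigr, the receptor that carries IgA and IgM across epithelium, went from 101.6, 136.8 and 190.5 to 1060, 1600 and 2120 CPM in parenchyma (log2FC 3.46 ± 0.14) and from 272.1, 377.4 and 672.2 to 1290, 1590 and 1920 CPM in airways (2.0). The HDM levels of both tissues overlapped and the PBS levels did not. Ccdc80, a matrix protein (difference 1.78 ± 0.22, adjusted p = 2.1e-09), and the ion channel Trpv4 (1.83 ± 0.24, adjusted p = 5.2e-08) rose in parenchyma by 1.7 and 2.17, with airway log2FCs of −0.08 and 0.34. The GTPases Gimap4 and Gimap5 were lower in parenchyma (−0.58 and −0.52) and did not pass in airways (0.23 and 0.22), and C130074G19Rik differed by −0.81 ± 0.14. The labels do not tie airway and parenchyma libraries to animals, so a shared mouse was not modelled, and these p-values treat the tissues as unpaired. Numbers in the titles run on between the tissues, and the immunoglobulin share of counts was highest in X11 (3.0%) and X12 (1.97%) of HDM.AIR.DEX and in X67 (0.275%) and X68 (0.0271%) of PBS.AIR.DEX, airway first.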

How the data were processed

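The deposited table holds estimated counts per gene, made by the authors for 203 libraries and 43346 genes; 20.3% of the values above 0 are not whole. The submitters' processing notes name bcl2fastq 2.20.0.422, STAR 2.5.1b, RSEM 1.2.31, kallisto 0.44.0 and mm10, without saying which made this table. Estimated counts were rounded to whole numbers. Genes at a CPM of 0.353 (10 counts in the median library) or more in at least 9 libraries were kept (18250). TMM factors (edgeR 4.0.16) and limma-voom (limma 3.58.1, R 4.3.3) were applied to the 160 libraries at 11 weeks with 1 mean for each of 16 groups and 144 residual degrees of freedom. P-values were adjusted by Benjamini-Hochberg over all genes. A gene was called (written as rose or fell) where the adjusted p was below 0.05 and the log2FC was 1 or more, or −1 or less. A gene called higher or lower without the word called passed the adjusted p alone. Effects with and without DEX, and in both tissues, were compared by interaction contrasts. CPM were computed on the library's total over the kept genes times its TMM factor, also where overlap between groups was judged. A fold against a group of at most 3 counts per library is a lower bound computed at 3 counts in each library.

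Named genes were the 8 largest rises and falls without overlap between groups, the smallest p in each direction, in each list up to 4 members with the largest passing log2FC and 2 with the highest level, the 6 and 3 smallest p in each direction for the difference by DEX and by tissue, 4 glucocorticoid targets, and members at the floor; other list members were named after their values were seen, and a few genes are not reported here. The members and lists were chosen with earlier results of these data known. The scripts were tested on simulated data. Gene positions come from GENCODE M21, matched by identifier for 42462 genes. Alternatives used edgeR's quasi-likelihood test, DESeq2 1.42.0, other scalings, filters, sample sets and covariates. They also left out each DEX parenchyma library in turn and, for the difference by DEX, library X70 of HDM.AIR. Figures were drawn with matplotlib 3.10.9.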

Additional observations from a re-analysis of the deposited data

Results flagged for a closer look

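For each named gene and library measure in each of the 2 DEX groups, the gap from the highest or lowest library to its neighbour was divided by the range of the group. The ratio passed Dixon's critical value of 0.466 for 10 libraries in 27 of 390 groups of values (6.92%). Chance gives about 1 in 20, and 8 of the 27 were in library X32. In library X32 of HDM.AIR.DEX, the ratio was past that value for Muc5b (0.682), Mcpt1 (0.478), Pcna (0.527), Gm42418 (0.731), mt-Rnr2 (0.881), the total count (0.558), the ribosomal RNA share (0.98) and the number of genes detected (0.831). In the other HDM.AIR.DEX libraries it was past that value for Ndst4 (0.51) and Emp2 (0.491) in X92, Ccl6 (0.537) in X112, Saa3 (0.512) in X172, Dntt (0.586) in X52, S100a9 (0.52) and Fkbp5 (0.561) in X152 and the immunoglobulin share (0.524) in X12. In PBS.AIR.DEX libraries it was past that value for Ighg2b (0.477) in X148, Ighg2c (0.473) and Chrdl1 (0.516) in X128, Prg2 (0.524), Gm42418 (0.494) and the ribosomal RNA share (0.719) in X68, Mmp12 (0.538), Ms4a2 (0.645) and Dntt (0.612) in X108, Il17f (0.646) in X28 and Actc1 (0.534) in X48.

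Among the genes chosen by the naming rule, 40 differed in the HDM effect with and without DEX by the limma interaction test (adjusted p under 0.05). The log2 difference was negative for Retnla (−2.97), Slpi (−2.76), Lcn2 (−1.95), Ltf (−1.93), Bub1 (−1.86), Tnni2 (−1.69), S100a8 (−1.58), Slc26a4 (−1.53), Ccl6 (−1.52), Ccl9 (−1.52), S100a9 (−1.51), Gpr55 (−1.5), Msr1 (−1.3), C3 (−1.1), Trem2 (−1.09), Srxn1 (−0.96), Sftpd (−0.81), Hdc (−0.8), Ccdc80 (−0.76), Slc41a2 (−0.76), Cd22 (−0.56), Anxa1 (−0.52), Plet1 (−0.48) and Pcna (−0.39). It was positive for Ms4a2 (2.22), Fcer1a (2.21), Chrdl1 (1.44), Ltbp4 (1.29), Inmt (1.25), Ptprb (1.13), Gata2 (1.07), Tek (1.01), Tgfbr3 (0.97), Ednrb (0.93), Tmem100 (0.9), Calcrl (0.82), Nr2f2 (0.76), Gsn (0.74), Cry2 (0.6) and Mylk (0.36). Tnni2 is a skeletal muscle gene, and without library X70 of HDM.AIR, in which skeletal muscle genes summed to 2620 CPM, its difference was −1.05 (adjusted p = 0.044). Without that library 37 of the 40 passed, and Cd22, Tmem100 and Mylk did not (adjusted p = 0.082, 0.075 and 0.058). Named for the smallest p of the difference between tissues under DEX, Ccdc80 (1.78), Trpv4 (1.83), Pigr (1.46), C130074G19Rik (−0.81), Gimap4 (−0.81) and Gimap5 (−0.74) differed in the HDM effect, as parenchyma less airway on the log2 scale.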

How the results depend on the processing

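Among genes chosen by the naming rule, none reversed a call under any alternative, up to 9 that passed in neither fit changed sign, and 94 no longer passed under the limma test against a log2FC of 1 and 50 with codes above 120 alone. The counts of 1558 rises and 398 falls stayed within 1.5 times except under the limma test against a log2FC of 1 (606 and 54 genes, 3.32% and 0.296% of those tested), a filter at a CPM of 10 (733 rises, 6.01%, with falls in 1.3% of 12187 genes) and, for falls, codes above 120 alone (258, 1.41%). The first has a stricter threshold, and the others use fewer genes or libraries. For the difference by DEX, parenchyma libraries alone gave 1656 more positive genes (9.61%), codes up to 120 gave 666 more negative (3.65%), and codes above 120 gave 15 (0.0822%) and 42 (0.23%). The cause was not tested. Leaving out each DEX library or, for the differences, X70 of HDM.AIR gave 1456 to 1632 rises, 371 to 446 falls, 864 to 1483 more positive and 920 to 1307 more negative differences. DESeq2 gave 1716 rises and 414 falls, and edgeR 1717 and 382. The settings by code, without X70 and without immunoglobulin segments were chosen after seeing the data. A fit with blocks of 20 codes as a covariate (a replicate block) gave 1613 rises and 403 falls. The labels do not say that these blocks, with 1 library of each parenchyma group used here, pair libraries. Depth limits genes near 3 counts per library, such as Il13 and Ighe.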
